A study of Mus musculus with 32 samples.

Results

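The RNA of 9 tubulin genes was measured in 32 single mouse oocytes. The genes were picked by name, 4 for alpha-tubulin (Tuba1a, Tuba1b, Tuba1c, Tuba4a), 4 for beta-tubulin (Tubb5, Tubb2a, Tubb4b, Tubb6) and 1 for gamma-tubulin (Tubg1), and all 9 were present among the 13175 genes of the deposited table. The oocytes came from wild-type follicles that had been put into culture at the preantral stage, either after vitrification (ice-free freezing) or fresh. There were 12 metaphase II (MII) oocytes from vitrified and 12 from fresh follicles, collected after hCG on day 9, and 4 germinal vesicle (GV) oocytes from vitrified and 4 from fresh follicles, taken on day 8 without hCG in the label. Library numbers ran from 81 to 85 in the GV oocytes and from 2 to 25 in the MII oocytes. Stage, day, hCG and library number series therefore changed together and cannot be told apart. Strain, age, and which mouse or culture an oocyte came from are not stated by the labels, so every p-value measures only the spread between oocytes, which may have shared a mouse or dish.

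Microtubules are built from dimers of alpha- and beta-tubulin, each encoded by a family of related isotype genes, some of them near-identical. Gamma-tubulin, in a ring complex, starts the growth of microtubules. In the oocyte microtubules form the meiotic spindle, which in the mouse is assembled without centrioles. A fully grown GV oocyte no longer transcribes, so the RNA of an oocyte matured from it is what remains of the stored pool. Whether the GV oocytes here were fully grown or had stopped transcribing was not tested. Stored messages change their poly(A) tails during maturation. The library kit (SMART-Seq v4) primes cDNA on the tail, and amount of message and length of tail cannot be told apart in these values.

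Total counts per oocyte ran from 5300203 to 12206497 in MII oocytes from vitrified follicles, from 6196963 to 10142885 in MII oocytes from fresh follicles, from 11159677 to 16554201 in GV oocytes from vitrified follicles and from 10357543 to 17687247 in GV oocytes from fresh follicles. Levels are given as CPM, counts per 1e6 on library sizes scaled by the trimmed mean of M values (TMM). The 14 oocyte marker genes in the table summed to between 11081 and 22804 CPM in the 32 oocytes. The 20 granulosa and cumulus marker genes summed to 2972 CPM in MII fresh replicate 11, with 18 of 20 above 0, and to 558 CPM in MII vitrified replicate 12, with 19 of 20 above 0. They summed to between 64.6 and 216 CPM in the other MII oocytes and to between 68.6 and 140 CPM in the GV oocytes. Tubulin results that rest on either of these oocytes are given with and without them.

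How far a count can be assigned to 1 tubulin gene depends on the sequence it shares with its relatives. The coding sequences of Tuba1a, Tuba1b and Tuba1c, which lie side by side on chromosome 15, were 97.1% to 98.3% identical, against 84.7% to 85.2% between each of them and Tuba4a.

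The end of the coding part was left out of the search for the 60-base stretch in which the 3 differed most. In the part searched, that stretch (coding bases 640 to 699, GENCODE M21 on GRCm38, the mm10 build) had 10 differing positions. Capitals mark the bases that differ from Tuba1b; here Tuba1b and Tuba1c were still identical, so this window tells Tuba1a from the other pair and no more.

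Tuba1b: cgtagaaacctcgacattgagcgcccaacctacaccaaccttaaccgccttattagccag
Tuba1a: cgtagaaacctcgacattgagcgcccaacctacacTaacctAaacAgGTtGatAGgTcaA
Tuba1c: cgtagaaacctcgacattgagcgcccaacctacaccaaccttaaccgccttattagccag

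Tubb2a and its neighbour Tubb2b differed at 47 of 1338 coding bases, 10 of them in the window below (coding bases 112 to 171). Tubg1 and its neighbour Tubg2 were easier to tell apart, with 91 of 1356 coding bases differing and 15 of them in coding bases 1159 to 1218. Capitals mark the bases of the second gene of each pair that differ from the first.

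Tubb2b: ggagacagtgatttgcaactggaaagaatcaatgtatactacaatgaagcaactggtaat
Tubb2a: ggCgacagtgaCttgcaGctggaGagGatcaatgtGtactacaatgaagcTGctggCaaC
Tubg2: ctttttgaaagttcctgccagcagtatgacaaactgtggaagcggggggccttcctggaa
Tubg1: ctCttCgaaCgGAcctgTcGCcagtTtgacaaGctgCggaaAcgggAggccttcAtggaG

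Over whole transcripts, the share of 50-base windows found in no other annotated gene was 16.9% for Tuba1b (chr15:98931425-98934565, minus strand), 24.5% for Tuba1a (chr15:98949837-98953703, minus strand) and 39.0% for Tuba1c (chr15:99029891-99038110, plus strand). All windows inside the 3′ UTR of Tuba1a and Tuba1c were their own, against 7.67% and 12.7% of those inside their coding parts. The share was 44.5% for Tubb4b (chr2:25222160-25224702, minus strand), which shared 43.6% of its windows with the pseudogene Tubb4b-ps1. It was 50.4% for Tubb2a (chr13:34074274-34078007, minus strand), which shared 45.6% with Tubb2b, and 85.9% for Tubg1 (chr11:101119938-101126419, plus strand), which shared 13.9% with Tubg2. Tubb5 (chr17:35833921-35838306, minus strand) and Tubb6 could be read almost without ambiguity, with 99.9% of windows unshared for Tubb5 and no shared window for Tubb6. Tuba4a (chr1:75214228-75219865, minus strand) was a different case. Its coding windows were 97.7% its own, but 1330 of its 2791 windows, nearly all in the long 3′ UTR, lay on the opposite strand of the kinase gene Stk16, and no source at hand says whether reads were counted by strand.

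**Figure D1:**
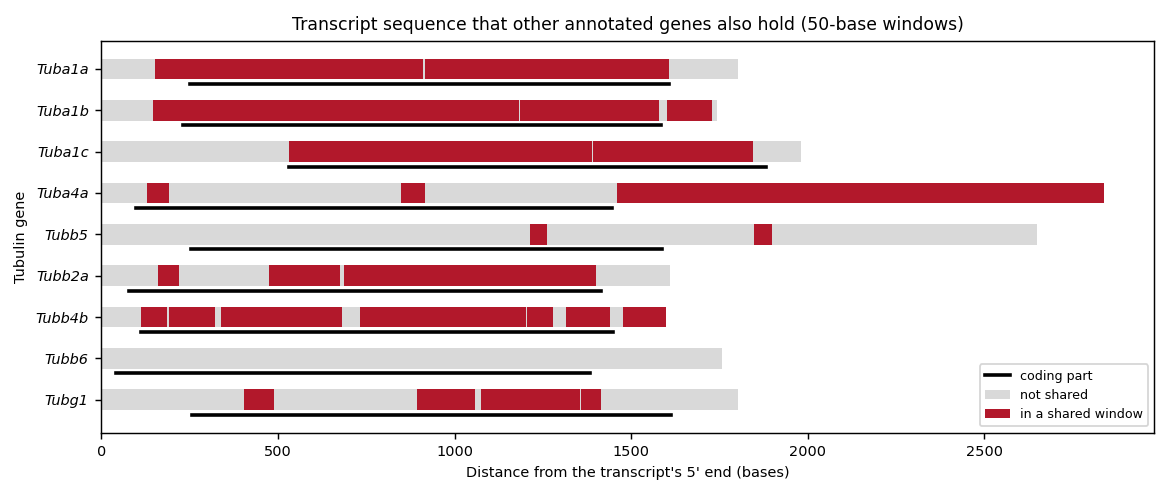
Shared sequence along the transcript of each tubulin gene, drawn from the 5′ end in bases (x axis), 1 bar per gene, red where a 50-base window is also found in another annotated gene and grey where it is not, with a black line under the coding part. Tubb6 has no shared window and Tubb5 almost none, while the coding parts of Tuba1a, Tuba1b and Tuba1c are nearly all shared.

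The deposited values differed in kind between the stages. All GV values were whole, whereas 11.7% to 19.7% of the values of an MII oocyte were not. Among the tubulin genes, Tuba1b, Tuba1c and Tubb4b were not whole in 24 of 24 MII oocytes, Tubb2a in 23, Tuba1a in 22, Tubg1 in 13 and Tuba4a in 1, and Tubb5 and Tubb6 were whole in every MII oocyte. Of all genes, 61.7% were whole in every MII oocyte and 6.67% were not whole in 20 or more. Wherever Tubg1 or Tubg2 was not whole, the sum of both was whole to within 0.1 in 13 of 13 oocytes, and the sum of Tubb2a and Tubb2b was in 23 of 23. The sum of Tuba1a, Tuba1b and Tuba1c was whole in 9 of 24 oocytes. No source at hand says how reads that match several genes were counted, and since only MII values were not whole, a difference in counting and a difference in stage cannot be told apart for genes with shared sequence.

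The tubulin RNA of MII oocytes differed from that of GV oocytes in both treatments: Tuba1c, Tuba1b, Tuba1a, Tubb2a and Tubg1 were higher at MII, and Tuba4a, Tubb4b and Tubb6 were lower. Between MII and GV oocytes from vitrified follicles, 6 of the 9 genes rose and 3 fell at an edgeR adjusted p under 0.05, where 25.1% of 10316 genes tested rose and 34.2% fell (59.3% either way). Between MII and GV oocytes from fresh follicles, 5 rose and 3 fell, where 23.5% of 10717 genes rose and 30.6% fell (54.1% either way). Over 50% of all genes tested were thus called, so the calls say less about these 9 genes than the sizes of their differences. The median log2 fold change of all genes was −0.27 for vitrified and −0.23 for fresh follicles, and the values below are relative to TMM scaling. When the scaling rested only on genes whole in every MII oocyte, that median became 0.48 for vitrified and 0.53 for fresh follicles, and more genes were called higher than lower (3780 higher and 2453 lower for vitrified, 3787 and 2154 for fresh). With total counts in place of TMM, 1867 were higher and 4248 lower for vitrified, and 1917 and 3957 for fresh follicles. None of the 9 genes changed direction under any of 4 other scalings in either stage comparison.

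**Figure D2:**
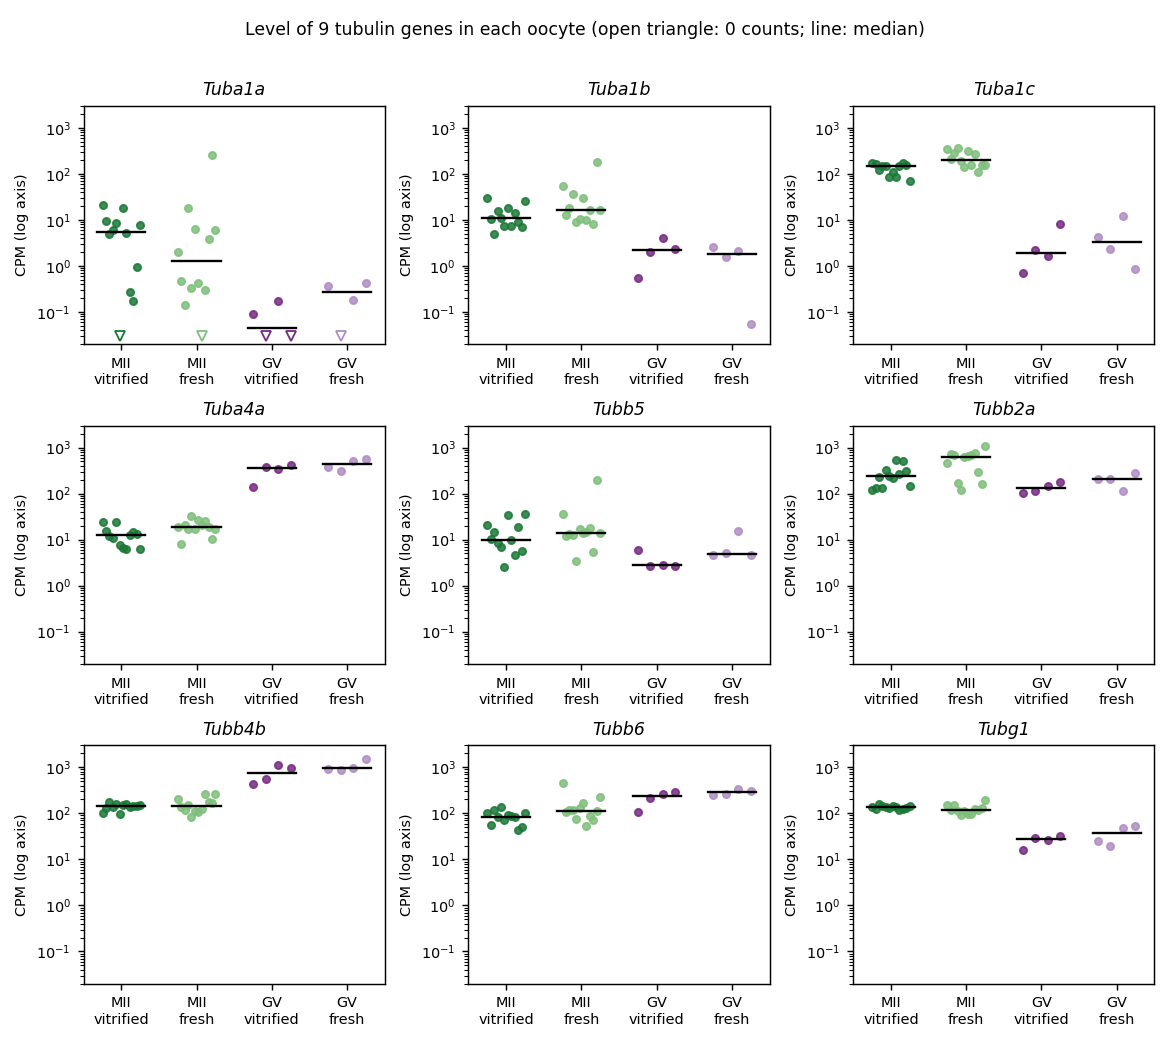
CPM (y axis, log scale, the same in all panels) of each tubulin gene in each of 32 oocytes by group (x axis), with the group median as a line and oocytes at 0 counts as open triangles near the floor of the axis. Tuba1c and Tuba4a change places between MII and GV oocytes, and MII fresh replicate 11 stands far above its group in Tuba1a, Tuba1b and Tubb5.

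Among the 4 listed alpha-tubulins, the main isotype differed between the stages. Tuba4a, an isotype best known from muscle, brain and platelets, carried the highest level of the 4 listed genes in every GV oocyte. In vitrified-follicle oocytes it had 6.10, 12.3 and 23.7 CPM (lowest, median, highest of 12) at MII, against 136, 378, 336 and 425 CPM in the 4 GV oocytes. In fresh-follicle oocytes it had 7.86, 18.8 and 32.7 CPM at MII, against 373, 312, 515 and 558 CPM at GV. Every MII oocyte was below every GV oocyte of its treatment. Tuba4a fell by 4.66 ± 0.32 on the log2 scale (standard error) with vitrified follicles, with an edgeR adjusted p of 1.14e-10, and fell by 4.50 ± 0.26 with fresh follicles, with an edgeR adjusted p of 9.32e-11. Stk16, with which its 3′ UTR overlaps, was at 0.564 and 1.98 CPM in MII oocytes from vitrified and fresh follicles. In GV oocytes from vitrified and fresh follicles it was at 5.08 and 5.69 CPM, far below Tuba4a. The Stk16 values depend on how reads of the overlap were counted, so they do not show how far the overlap affects Tuba4a.

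Tuba1c, one of the widely used alpha isotypes, moved the other way. With vitrified follicles it had 69.0, 149 and 171 CPM (lowest, median, highest of 12) at MII, against 0.716, 2.16, 1.65 and 7.91 CPM in the GV oocytes. In fresh-follicle oocytes it had 112, 198 and 356 CPM at MII, against 4.17, 2.37, 12.1 and 0.862 CPM at GV. The groups did not overlap. Tuba1c rose by a log2 of 5.37 ± 0.53 in vitrified-follicle oocytes, with an edgeR adjusted p of 2.18e-08, and by 5.51 ± 0.63 in fresh-follicle oocytes, with an edgeR adjusted p of 4.54e-07.

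Tuba1b, its near-identical neighbour, was also above its GV values at MII. With vitrified follicles it had 5.01, 10.7 and 29.8 CPM (lowest, median, highest of 12) at MII, against 0.537, 2.01, 3.94 and 2.33 CPM at GV. With fresh follicles it had 8.03, 16.0 and 182 CPM at MII, against 2.51, 1.58, 2.12 and 0.0539 CPM at GV. The groups did not overlap in either treatment, and Tuba1b rose by a log2 of 2.57 ± 0.59 for vitrified follicles, with an edgeR adjusted p of 7.63e-04, and by 4.42 ± 1.05 for fresh follicles, with an edgeR adjusted p of 0.00144. Without MII fresh replicate 11, the fresh value was 3.65. The log2 ratio of all windows to unshared windows of Tuba1b was 2.56. A rise of that size would appear if GV counts alone left out shared reads. Less this ratio, the difference was 0.0066 with vitrified (lower interval end −1.21) and 1.86 with fresh follicles (lower end −0.34). For Tuba1c the ratio was 1.36, which left 4.01 (lower end 2.90) and 4.15 (lower end 2.84). Whether GV counts left out shared reads was not tested.

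Tuba1a, the isotype of young neurons, was close to 0 in GV oocytes and scattered at MII. Counts in GV oocytes were 0 to 4 with vitrified and 0 to 9 with fresh follicles, and 2 of 4 and 1 of 4 oocytes were at 0. In MII oocytes it ran over 0, 5.50 and 21.2 CPM (lowest, median, highest of 12) with vitrified follicles and over 0, 1.25 and 249 CPM with fresh follicles. The groups overlapped at the low end. Tuba1a rose by a log2 of 6.42 ± 1.53 with vitrified follicles, with an edgeR adjusted p of 0.00111, and by 6.59 ± 2.34 with fresh follicles, with an edgeR adjusted p of 0.0228. The fresh value rests in part on MII fresh replicate 11 and became 3.74 without the 2 oocytes high in granulosa and cumulus genes, with an edgeR adjusted p of 0.0343. It was no longer called without GV fresh replicate 1, 2 or 3 (6.84, 6.12 and 6.44, with edgeR adjusted p of 0.0513, 0.0617 and 0.0576) or with limma-voom, where it was 3.44. The log2 ratio of all windows to unshared windows of Tuba1a was 2.03. Less this ratio, the difference was 4.38 with vitrified (lower interval end 1.21) and 4.56 with fresh follicles (lower end −0.34).

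The sum of Tuba1a, Tuba1b and Tuba1c does not depend on how reads were divided among the 3. It does depend on whether reads that match several of them were counted at all, and on reads shared with genes outside the sum. Of the windows of Tuba1a, Tuba1b and Tuba1c, 46.6%, 47.7% and 37.7% were shared with Gm17383. With Gm3226 they shared 40.8%, 47.3% and 38.7%. How reads were divided with such genes was not tested. This sum was whole in 9 of 24 MII oocytes. It was 152 ± 38.6 CPM in MII oocytes from vitrified follicles and 280 ± 135 CPM in MII oocytes from fresh follicles (SD, n = 12 each), against 5.38 ± 3.72 and 6.68 ± 5.63 CPM in GV oocytes from vitrified and fresh follicles (SD, n = 4 each).

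Among the 4 listed beta-tubulins, Tubb4b had the highest level per kb at GV and Tubb2a at MII. Tubb4b, a broadly expressed isotype also found in cilia, had 98.2, 145 and 178 CPM (lowest, median, highest of 12) at MII with vitrified follicles, against 429, 569, 1094 and 969 CPM at GV. With fresh follicles it had 84.8, 144 and 269 CPM at MII, against 938, 883, 982 and 1491 CPM at GV. All MII oocytes were below all GV oocytes of the same treatment. On the log2 scale Tubb4b fell by 2.45 ± 0.20 with vitrified follicles, with an edgeR adjusted p of 1.45e-09, and fell by 2.75 ± 0.25 with fresh follicles, with an edgeR adjusted p of 3.15e-08.

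Tubb2a, a major isotype of brain, had 122, 237 and 525 CPM (lowest, median, highest of 12) at MII with vitrified follicles, against 100, 112, 147 and 182 CPM at GV. Fresh-follicle oocytes had 122, 632 and 1066 CPM at MII, against 207, 205, 116 and 285 CPM at GV. The groups overlapped in both treatments. Tubb2a rose by a log2 of 0.94 ± 0.36 with vitrified follicles, with an edgeR adjusted p of 0.0313, and by 1.39 ± 0.49 with fresh follicles, with an edgeR adjusted p of 0.0206. The vitrified call was lost within MII libraries numbered under 20 (0.51, adjusted p 0.158), in 1 fit of all 32 oocytes (0.96, adjusted p 0.0644), with total counts (0.46) and without GV vitrified replicate 1 or 2. The fresh call was lost with total counts (0.94) and without GV fresh replicate 3 (1.18). The log2 ratio of all windows to unshared windows of Tubb2a was 0.99. Less this ratio, the difference was −0.048 with vitrified (lower interval end −0.81) and 0.40 with fresh follicles (lower end −0.61). Tubb2b stayed low throughout, at 0.742 ± 0.802 and 1.80 ± 0.853 CPM in MII oocytes from vitrified and fresh follicles (SD, n = 12 each), against 2.00 ± 1.35 and 4.91 ± 3.18 CPM in GV oocytes from vitrified and fresh follicles (SD, n = 4 each).

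Tubb6, which has no shared window and whole values in every oocyte, was somewhat lower at MII. It had 42.9, 85.01 and 139 CPM (lowest, median, highest of 12) at MII with vitrified follicles, against 108, 214, 262 and 289 CPM at GV. With fresh follicles it had 51.9, 114 and 451 CPM at MII, against 252, 265, 343 and 311 CPM at GV. The groups overlapped through MII fresh replicate 1, the 451, and through GV vitrified replicate 1, the 108. On the log2 scale Tubb6 fell by 1.36 ± 0.27 with vitrified follicles, with an edgeR adjusted p of 1.71e-04, and fell by 1.04 ± 0.39 with fresh follicles, with an edgeR adjusted p of 0.0288. Both calls were lost when the scaling rested on genes whole in every MII oocyte (−0.59 and −0.27), and the fresh call was lost also with upper quartile scaling, within MII libraries numbered under 20, and without GV fresh replicate 2, 3 or 4.

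Tubb5, the general beta isotype of most dividing cells, was low, at 2.56, 10.0 and 36.2 CPM (lowest, median, highest of 12) in MII oocytes from vitrified follicles, against 5.90, 2.67, 2.82 and 2.74 CPM in the GV oocytes. With fresh follicles it had 3.404, 13.8 and 194 CPM at MII, against 4.62, 5.20, 15.1 and 4.53 CPM at GV. The groups overlapped in both treatments, and Tubb5 rose with vitrified follicles by a log2 of 2.03 ± 0.64, with an edgeR adjusted p of 0.0098. With fresh follicles the log2 difference was 2.02 ± 0.91, with an edgeR adjusted p of 0.0687, and it was 0.96 without MII fresh replicate 11, whose Tubb5 was 194 CPM. The difference in fresh follicles passed the threshold in 1 fit of all 32 oocytes (adjusted p 0.0364), within MII libraries numbered 20 and over (2.79), with 2 of the other scalings and without GV fresh replicate 3 or MII fresh replicate 5.

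Tubg1, the gamma-tubulin gene that most cells rely on for nucleation, was the most even of the 9 in MII oocytes from vitrified follicles, where it had 116, 136 and 163 CPM (lowest, median, highest of 12), against 16.0, 29.4, 26.8 and 31.7 CPM at GV. Fresh-follicle oocytes had 92.0, 120 and 190 CPM at MII, against 24.7, 19.1, 49.1 and 53.1 CPM at GV. The groups did not overlap. Tubg1 rose by a log2 of 2.37 ± 0.22 with vitrified follicles, with an edgeR adjusted p of 6.18e-09, and by 1.77 ± 0.30 with fresh follicles, with an edgeR adjusted p of 4.51e-05. Tubg2, its close copy, was at 356 ± 82.4 and 295 ± 74.4 CPM in MII oocytes from vitrified and fresh follicles (SD, n = 12 each), against 63.9 ± 36.2 and 79.6 ± 44.1 CPM in GV oocytes from vitrified and fresh follicles (SD, n = 4 each). Per kb, Tubg1 made up 23.4% ± 3.79 and 25.3% ± 5.86 of the level of both genes in MII oocytes from vitrified and fresh follicles, against 26.5% ± 8.19 and 27.0% ± 10.6 in GV oocytes from vitrified and fresh follicles.

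The CPM ranges of 3 genes (Tuba1b, Tuba1c, Tubg1) lay above and of 2 (Tuba4a, Tubb4b) below the GV range in each treatment. Ranges lay fully above in 14.7% and fully below in 22.6% of genes tested with vitrified follicles, and in 13.4% and 19.6% with fresh follicles. MII libraries carry numbers under 20 or of 20 and over, a split of 7 and 5 oocytes in each treatment. Within each of these 2 series, Tuba1b, Tuba1c, Tuba4a, Tubb4b and Tubg1 were called in the same direction in both treatments. Tuba1c, for example, had log2 values of 5.38 and 5.36 with vitrified and 5.78 and 5.15 with fresh follicles in the lower and the higher numbers. Tubb5 had 1.95 and 2.13 with vitrified and 1.09 and 2.79 with fresh follicles, Tubb2a 0.51 and 1.40 with vitrified and 1.25 and 1.56 with fresh follicles, and Tubb6 −1.26 and −1.53 with vitrified and −0.82 and −1.40 with fresh follicles.

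**Figure D3:**
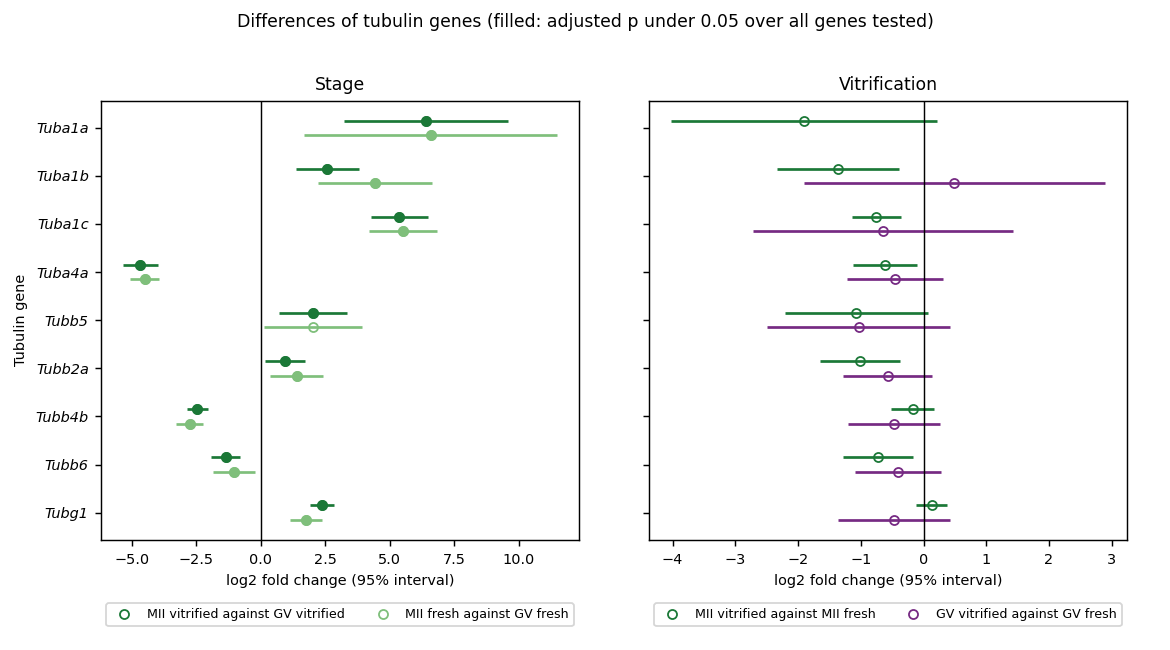
Log2 fold change (x axis) of each tubulin gene (y axis) with its 95% interval, for MII against GV oocytes at the left and vitrified against fresh follicles at the right, filled where the edgeR adjusted p over all genes tested was under 0.05. In the stage panel every point but that of Tubb5 with fresh follicles is filled, and in the vitrification panel none is.

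Shares within an oocyte are free of library scaling, though not of how shared reads were counted. Each oocyte was measured at 1 stage, so the shares are compared between groups. Levels per kb of merged exons were used, since the genes differ in length. Tuba1c made up 80.1% ± 9.13 and 79.4% ± 18.5 of the 4 listed alpha genes in MII oocytes from vitrified and fresh follicles (SD, n = 12 each), against 1.35% ± 1.03 and 1.71% ± 1.42 in GV oocytes from vitrified and fresh follicles (SD, n = 4 each). Tuba4a made up 4.63% ± 1.34 and 4.90% ± 2.58 at MII, against 97.3% ± 1.04 and 97.4% ± 1.71 at GV, with vitrified and fresh follicles in that order. With Tuba1a, Tuba1b and Tuba1c taken per unshared window, Tuba4a made up 89.8% ± 3.42 and 91.4% ± 5.18 in the same GV groups. Tuba1b then made up 6.84% ± 3.35 and 4.15% ± 2.92 there, and Tuba1c 3.18% ± 2.40 and 4.02% ± 3.29.

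Among the 4 listed beta genes, Tubb2a made up 57.4% ± 12.0 and 65.6% ± 16.3 in MII oocytes from vitrified and fresh follicles (SD, n = 12 each), against 16.2% ± 2.95 and 16.5% ± 4.10 in GV oocytes from vitrified and fresh follicles (SD, n = 4 each). Tubb4b made up 26.6% ± 6.62 and 18.4% ± 8.32 at MII, against 67.0% ± 3.89 and 67.1% ± 2.65 at GV. The share of Tubb6 was 14.1% ± 5.56 and 13.4% ± 8.00 at MII, against 16.6% ± 2.82 and 16.1% ± 3.32 at GV. The summed level of the 4 alpha genes was 71.9 ± 18.8 and 134 ± 69.1 CPM per kb in MII oocytes from vitrified and fresh follicles, against 88.7 ± 35.7 and 122 ± 31.7 CPM per kb in GV oocytes from vitrified and fresh follicles. That of the 4 beta genes was 270 ± 87.8 and 475 ± 204 CPM per kb at MII, against 541 ± 201 and 763 ± 172 CPM per kb at GV.

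The listed genes are part of the picture only. With all 8 alpha-tubulin genes of the table, Tubal3, an alpha-like gene, made up 46.9% ± 9.90 and 33.4% ± 10.3 of the alpha level per kb in MII oocytes from vitrified and fresh follicles, against 8.02% ± 5.40 and 4.94% ± 1.60 in GV oocytes. Tuba1c then made up 29.2% ± 6.55 and 34.9% ± 9.06 at MII, against 0.289% ± 0.158 and 0.455% ± 0.402 at GV. Tuba3a, known as a testis isotype and a near-identical copy of Tuba3b, made up 9.01% ± 4.51 and 11.9% ± 7.80 at MII, against 54.5% ± 6.33 and 53.2% ± 11.4 at GV. On this wider scale Tuba4a was the second alpha gene of the GV oocyte, at 22.96% ± 5.50 with vitrified and 25.4% ± 8.28 with fresh follicles. Among all beta genes, Tubb3, known as the neuronal isotype, made up 41.5% ± 9.25 and 27.8% ± 12.0 at MII, against 10.9% ± 1.94 and 8.38% ± 1.77 at GV. On the same scale Tubb2a made up 34.2% ± 11.4 and 48.1% ± 16.6 at MII, below Tubb3 with vitrified and above it with fresh follicles, against 14.5% ± 2.93 and 15.0% ± 3.56 at GV. Tubb4b made up 15.2% ± 3.10 and 12.8% ± 5.02 at MII, against 59.5% ± 2.81 and 61.3% ± 3.21 at GV.

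**Figure D4:**
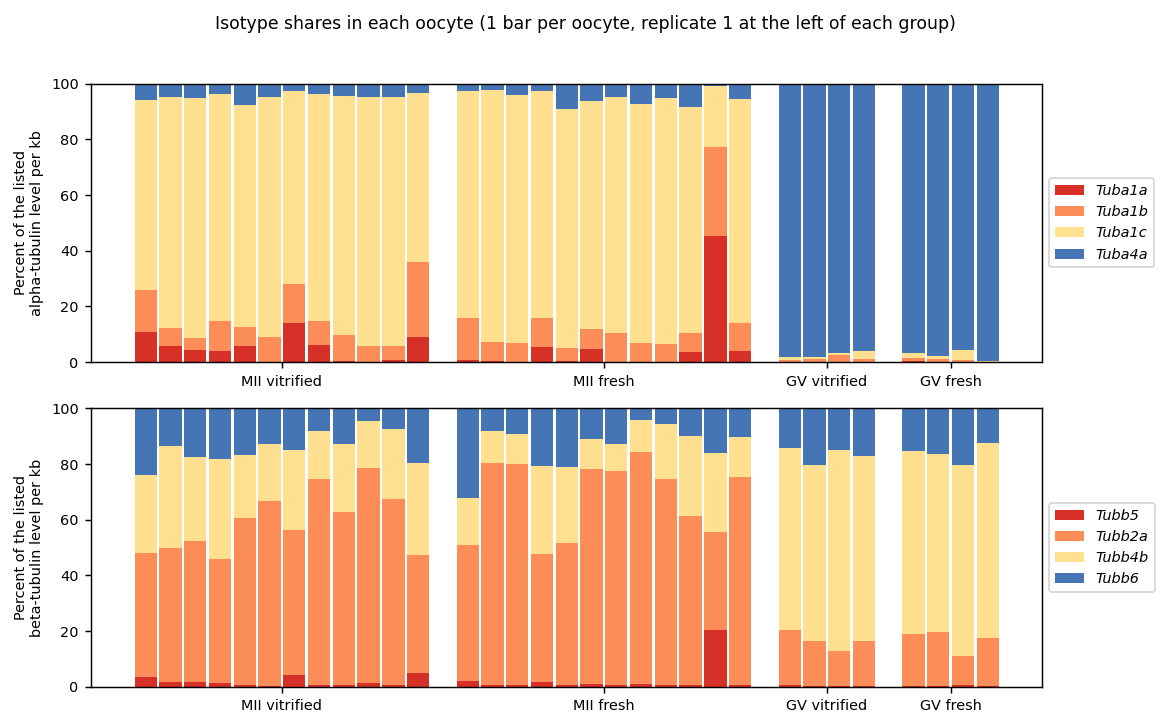
Share of each listed gene in the summed alpha (top) and beta (bottom) tubulin level per kb (y axis, percent), 1 stacked bar per oocyte in 4 groups along the x axis. Tuba4a fills the bars of the GV oocytes and Tuba1c those of nearly all MII oocytes, and MII fresh replicate 11 alone has Tuba1a as its largest alpha share.

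In order of CPM per kb, MII oocytes from vitrified follicles had Tubb2a first (163), then Tubb4b (67.6), Tubg1 (60.1), Tuba1c (57.5), Tubb6 (35.1), Tuba1b (7.13), Tubb5 (4.34), Tuba1a (3.78) and Tuba4a (3.43). Only the first and the fifth step held in every oocyte: Tubb2a was above Tubb4b and Tubb6 above Tuba1b in 12 of 12. MII oocytes from fresh follicles had Tubb2a (331), Tuba1c (97.2), Tubb4b (76.6), Tubb6 (58.6), Tubg1 (55.2), Tuba1b (17.8), Tuba1a (13.3), Tubb5 (8.85) and Tuba4a (5.30), and no neighbours there kept their order in all 12 oocytes. The low end rested on MII fresh replicate 11: Tuba1a was above Tubb5 in 3 of 12 oocytes and Tubb5 above Tuba4a in 4 of 12. Without this oocyte the last 4 were Tuba1b (10.6), Tuba4a (5.53), Tubb5 (4.36) and Tuba1a (1.92). Without MII vitrified replicate 12, Tuba1c (60.01) and Tubg1 (59.7) changed places in the order with vitrified follicles. GV oocytes from vitrified follicles had Tubb4b (367), Tubb6 (89.5), Tuba4a (86.1), Tubb2a (84.1), Tubg1 (11.5), Tuba1c (1.36), Tuba1b (1.18), Tubb5 (1.06) and Tuba1a (0.0364). GV oocytes from fresh follicles had Tubb4b (514), Tubb2a (126), Tubb6 (120), Tuba4a (119), Tubg1 (16.1), Tubb5 (2.21), Tuba1c (2.13), Tuba1b (0.835) and Tuba1a (0.136). In all 4 GV oocytes of each treatment Tubb4b stood above its neighbour in the order, and so did Tubg1 above the group of low genes, whereas Tubb6, Tuba4a and Tubb2a changed places from oocyte to oocyte.

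Vitrification of the follicle gave no called difference in the tubulin genes. Between MII oocytes from vitrified and fresh follicles, edgeR called 0 of 9, as it called 0 of 8428 genes tested (0%), and 12.5% of the genes tested had an unadjusted p under 0.05. The log2 difference was below 0 in 8 of the 9, where it was below 0 in 54.7% of all genes. Among these 8, Tuba1a and Tubb5 were above 0 without MII fresh replicate 11, at 1.00 and 0.03. Tuba1c had the smallest p, at −0.75 ± 0.19 with a 95% interval of −1.14 to −0.36. Its levels were 132 ± 35.5 CPM with vitrified and 222 ± 85.3 CPM with fresh follicles (SD, n = 12 each), the ranges overlapped, and the edgeR adjusted p was 0.190. DESeq2 gave −0.76 with an adjusted p of 0.0315 for this gene and called 52 genes in all (20 higher, 32 lower), whereas edgeR called 0 and limma-voom 0.

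For Tubb2a, MII oocytes had 263 ± 136 CPM with vitrified and 533 ± 294 CPM with fresh follicles (SD, n = 12 each), a log2 difference of −1.01 ± 0.31 with an edgeR adjusted p of 0.206. The ranges overlapped, since 4 of the fresh-follicle oocytes lay between 122 and 289 CPM and the other 8 between 453 and 1066 CPM. Tuba4a had a difference of −0.62 ± 0.25 (edgeR adjusted p 0.324), Tubb6 of −0.73 ± 0.27 (edgeR adjusted p 0.285) and Tuba1b of −1.37 ± 0.47 (edgeR adjusted p 0.257). These 5 genes had an unadjusted p under 0.05. The 95% intervals were −1.65 to −0.38 for Tubb2a, −1.13 to −0.11 for Tuba4a, −1.29 to −0.18 for Tubb6 and −2.34 to −0.40 for Tuba1b, so a decrease by a log2 of 1 lay inside all 4 intervals. For Tubb4b and Tubg1 the intervals were narrow, −0.52 to 0.17 and −0.12 to 0.37.

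Within the MII libraries numbered under 20 and of 20 and over, the log2 difference of Tuba1c was −0.94 and −0.44, that of Tubb2a −1.27 and −0.78, that of Tubb6 −0.83 and −0.57, that of Tuba4a −0.51 and −0.82 and that of Tuba1b −0.78 and −1.97. None was called in either. Differences of Tuba1a (−1.91) and Tubb5 (−1.07) rested on 1 oocyte. Without MII fresh replicate 11 they were 1.00 and 0.03. The difference of Tuba1b was −0.70 without MII fresh replicate 11 and MII vitrified replicate 12.

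Between GV oocytes from vitrified and fresh follicles, 0 of the 8 tubulin genes tested were called by edgeR, as were 0 of 10831 genes (0%), and 1.66% of genes had an unadjusted p under 0.05, 0 of them tubulins. Tuba1a was too low to test. The log2 difference was below 0 in 7 of the 8, against 49.8% of all genes, and ran from −1.03 ± 0.68 for Tubb5 to 0.49 ± 1.11 for Tuba1b. Both ends moved with single oocytes: Tubb5 had −0.42 without GV fresh replicate 3, and Tuba1b ran between 0.048 and 0.85 without GV fresh replicate 1 or 4 or GV vitrified replicate 1 or 3. With 4 oocytes in each group, the intervals were wide (for Tuba4a −1.22 to 0.31). Whether the stage difference depended on vitrification was tested as the interaction of stage and treatment. No tubulin gene was called among 11470 genes (0%), of which 4.07% had an unadjusted p under 0.05. Tubg1 (0.61 ± 0.31, unadjusted p 0.0550) and Tuba1b (−1.83 ± 0.98, unadjusted p 0.0715) came nearest in the edgeR test, both with an adjusted p of 1.00. The value of Tuba1b was −1.20 without MII fresh replicate 11 and MII vitrified replicate 12.

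Tuba1a, Tuba1b and Tubb5 were highest in the oocyte with the most granulosa and cumulus RNA. MII fresh replicate 11 had 249 CPM of Tuba1a, 182 CPM of Tuba1b and 194 CPM of Tubb5, where the other 11 oocytes of its group had medians of 0.462, 16.0 and 13.7 CPM and highest values of 18.3, 53.2 and 36.1 CPM. MII vitrified replicate 12 was the highest of its group in Tubb5, with 36.2 CPM, and had 7.88 CPM of Tuba1a and 25.03 CPM of Tuba1b. Granulosa and cumulus cells surround the oocyte and can stay attached after ovulation; their part in these values was not tested. The highest values of Inha, Tnfaip6, Ptx3 and Fst in MII oocytes from fresh follicles were 1676, 440.7, 250.2 and 188.003 CPM. Each exceeded the whole marker sum of every oocyte of that group but MII fresh replicate 11. Lhcgr was at 0 in 9 of 12 MII oocytes from vitrified and 12 of 12 from fresh follicles. Inhbb was at 0 in 12 of 12 and 11 of 12, whereas Cyp19a1 and Nr5a2 were above 0 in every oocyte. These 2 had medians of 70.6 and 15.2 CPM in MII oocytes from fresh follicles. All marker sums thus include them, and whether their RNA came from attached cells was not tested. The 3 theca and stroma markers in the table summed to at most 16.9 CPM and the 1 immune marker to at most 11.2 CPM in any oocyte. MII vitrified replicate 12 was also the lowest of its group in Tuba1c (69.0 CPM) and Tuba4a (6.10 CPM). Without both oocytes, the log2 stage differences of Tuba1c, Tuba4a, Tubb4b and Tubg1 were 5.43, −4.59, −2.46 and 2.36 with vitrified follicles and 5.55, −4.45, −2.77 and 1.75 with fresh follicles.

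**Figure D5:**
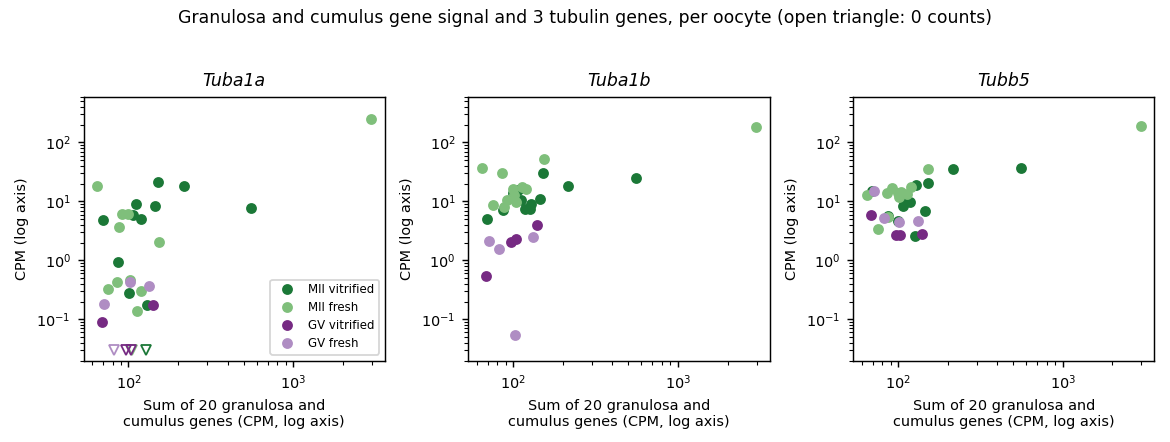
CPM of Tuba1a, Tuba1b and Tubb5 (y axes, log scale) against the summed CPM of 20 granulosa and cumulus marker genes (x axis, log scale), 1 point per oocyte, coloured by group, with oocytes at 0 counts as open triangles. MII fresh replicate 11, at 2972 CPM of the markers, is the highest point in all 3 panels.

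The genes that work with tubulin were read from lists for each role. Most genes for tubulin folding were lower at MII. The list holds prefoldin, which hands new tubulin to the chaperonin, and the cofactors that join alpha to beta. Of 12 tested, 0 rose and 10 fell in vitrified-follicle oocytes, with a median log2 fold change of −2.69 where all genes had −0.27 and 34.2% of them fell. With fresh follicles 1 rose and 9 fell, with a median of −2.07 where all genes had −0.23 and 30.6% of them fell. Pfdn1, a prefoldin subunit, had 9.81 ± 5.51 and 11.5 ± 7.04 CPM in MII oocytes from vitrified and fresh follicles (SD, n = 12 each), against 294 ± 28.6 and 362 ± 64.5 CPM in GV oocytes from vitrified and fresh follicles (SD, n = 4 each). Tbcb, a cofactor that binds alpha-tubulin, was at 10.8 ± 4.41 and 16.5 ± 7.95 CPM at MII, against 234 ± 72.3 and 237 ± 65.8 CPM at GV. Arl2, the small GTPase of the cofactor complex, had log2 fold changes of −5.09 ± 0.33 with vitrified and −4.40 ± 0.38 with fresh follicles, and Pfdn6, another prefoldin subunit, of −7.94 ± 0.61 and −7.01 ± 0.89. Over 15 other settings 9 to 10 folding genes fell with vitrified and 8 to 10 with fresh follicles.

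The gamma-tubulin ring complex list, the partners of Tubg1, was divided, with 4 of 10 tested rising and 3 falling in both treatments. Of all genes tested, 25.1% rose and 34.2% fell with vitrified and 23.5% rose and 30.6% fell with fresh follicles, so the number falling was near that of all genes. Nedd1, which brings the ring complex to the spindle, was at 598 ± 156 and 481 ± 101.02 CPM in MII oocytes from vitrified and fresh follicles (SD, n = 12 each), against 58.4 ± 21.005 and 39.1 ± 14.8 CPM in GV oocytes (SD, n = 4 each). Tubgcp5, a ring subunit, rose by a log2 of 2.87 ± 0.43 and 3.33 ± 0.35. Tubgcp2, a subunit of its core, had −3.25 ± 0.61 and −3.15 ± 0.64, and Mzt2, a small ring protein, −4.62 ± 0.58 and −3.98 ± 0.63.

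Of the other tubulin genes, 4 of 8 tested rose and 2 fell in both treatments, beside 25.1% and 34.2% of all genes with vitrified and 23.5% and 30.6% with fresh follicles. Tube1, for epsilon-tubulin of centrioles, rose by 3.15 ± 0.31 with vitrified and 2.39 ± 0.26 with fresh follicles, Tubg2 by 2.46 ± 0.32 and 1.88 ± 0.30, and Tubal3 by 1.91 ± 0.26 and 1.85 ± 0.25. Tuba3a had −3.70 ± 0.36 and −2.87 ± 0.54. Genes for tubulin modification went both ways, with 4 rising and 6 falling of 16 tested with vitrified follicles, and 6 rising and 6 falling of 18 with fresh follicles, numbers near the same shares of all genes. Agbl2, a carboxypeptidase that trims tubulin tails, rose by 3.15 ± 0.34 and 3.35 ± 0.30. Svbp, the partner of the enzymes that remove the end tyrosine of alpha-tubulin, had −5.28 ± 0.47 and −3.66 ± 0.54, and Ttll11, a polyglutamylase, −2.70 ± 0.23 and −2.50 ± 0.38. Atat1, which acetylates alpha-tubulin, rose by 1.92 ± 0.37 and 1.52 ± 0.37, and Ttll5, a glutamylase, by 1.98 ± 0.41 and 1.82 ± 0.31.

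Ttc5, which recognises nascent tubulin and starts the decay of tubulin messages when free tubulin is plentiful, was at 4.36 ± 2.65 and 8.96 ± 3.72 CPM in MII oocytes from vitrified and fresh follicles (SD, n = 12 each), against 28.7 ± 13.3 and 27.0 ± 5.90 CPM in GV oocytes (SD, n = 4 each). On the log2 scale it fell by 2.72 ± 0.41 with vitrified follicles, with an edgeR adjusted p of 7.78e-06, and fell by 1.59 ± 0.34 with fresh follicles, with an edgeR adjusted p of 6.04e-04. Its partner Scaper had 0.82 ± 0.38 and 0.63 ± 0.42, with edgeR adjusted p of 0.0730 and 0.220. Of the 7 severing and tubulin-binding genes tested, 2 rose and 3 fell with vitrified follicles, and 2 rose and 1 fell with fresh follicles. Of all genes, 25.1% rose and 34.2% fell with vitrified, and 23.5% rose and 30.6% fell with fresh follicles. Fignl1, a severing-type ATPase, rose by 3.403 ± 0.35 and 3.94 ± 0.35 and Katna1, a katanin subunit, by 1.20 ± 0.29 and 1.26 ± 0.31, while Katnal2, a katanin relative, had −3.33 ± 0.44 and −2.63 ± 0.46. Spast (spastin) had −0.82 ± 0.23 and −0.43 ± 0.21, called with vitrified follicles only, with edgeR adjusted p of 0.00401 and 0.0862. In lists other than the folding list, the sign of the median changed between settings for most, so no direction is given for them as a whole.

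No member held either of 2 cytoplasmic polyadenylation element letters, TTTTAT or TTTTAAT, on the sense strand in the last 150 bases of its annotated transcript, which 21.1% of 17186 protein-coding transcripts and 24.5% of 9864 transcripts of genes of the table did. That holds for the genes that rose and for those that fell. The poly(A) signal letters AATAAA or ATTAAA were in the same window of 7 members and not of Tuba1b and Tuba4a, and which 3′ ends these oocytes used was not tested.

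The 3 tubulin genes with the highest level per kb over the groups were set beside all other genes whose log2 CPM averaged 4 or more, by the Pearson correlation of log2 CPM, as a description only. Over all 32 oocytes, which share the stage difference, Tubb4b was most like Cdk20 (0.957), Eif6 (0.952) and Adrm1 (0.947), Tubb6 most like Phb2 (0.876), Pfn1 (0.859) and Rtf2 (0.844), and Tubb2a most like Nlrp5 (0.684), Ccdc115 (0.673) and Olah (0.668), out of 4684 genes. Over the 24 MII oocytes, out of 4550 genes, Tubb4b was most like Nprl2 (0.795), Imp4 (0.785) and Ap1m1 (0.752), Tubb6 like Phb2 (0.802), Scamp3 (0.776) and Pfn1 (0.756), and Tubb2a like Oas1c (0.783), Gja4 (0.762) and Dnmt3l (0.752). Phb2, a mitochondrial prohibitin, and Pfn1, the actin-binding profilin, were thus named for Tubb6 in both sets, and no gene was named in both for Tubb4b or Tubb2a.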

How the data were processed

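Single oocytes were sequenced, 1 library each. Per the submitters' processing notes, reads were aligned to mm10 with HISAT2 and counted with featureCounts, with no version or setting given. The deposited GV values are whole read counts per gene. The deposited MII values are partly fractional and were handled like expected counts, rounded to whole numbers before every count test. No source at hand names the step behind the fractions, and the design had assumed whole counts. Of 13202 lines in the table, 27 exact repeats were dropped.

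Each comparison was fitted on its own oocytes with edgeR 4.0.16 (quasi-likelihood F test, TMM scaling, low genes removed by filterByExpr) in R 4.3.3, and stage by treatment on all 32, with Benjamini-Hochberg adjustment over all genes tested and a threshold of 0.05. limma 3.58.1 and DESeq2 1.42.0 served as alternatives. The fits were checked on simulated data. Intervals are 95% intervals. Sequences came from GENCODE M21 transcripts on GRCm38 (13059 of 13175 symbols matched), and 50-base windows were searched on both strands.

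The tubulin genes and the lists were chosen with earlier results of these data known. All 9 tubulin genes are named, with up to 4 genes of each list having the smallest p in each stage comparison, and the 3 genes most like each of the 3 tubulin genes with the highest mean level per kb. Replicate numbers were not used as pairs in the main fits (see the dependence on processing).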

Additional observations from a re-analysis of the deposited data

Results flagged for a closer look

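Among 18 groups of 4 GV oocytes examined, 3 had 1 oocyte far from the other 3 by the gap to its neighbour against the group's range (Dixon's critical value at 95%). Chance alone marks about 1 in 20 groups. Tubb5 was 5.90 CPM in GV vitrified replicate 1, against 2.67 to 2.82 CPM in the other 3. Tubb5 was 15.1 CPM in GV fresh replicate 3, against 4.53 to 5.20 CPM in the other 3. Tubb4b was 1491 CPM in GV fresh replicate 4, against 883 to 982 CPM in the other 3. The MII groups hold more than 10 oocytes and were not examined in this way.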

How the results depend on the processing

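With fresh follicles 6 to 9 tubulin genes were called between the stages, with vitrified follicles 8 to 9, over other settings and over leaving out each oocyte in turn. No stage difference reversed over these settings. Between MII groups the calls ran from 0 to 1 over other settings (0 to 0 on leaving out an oocyte). Replicate numbers were not used as pairs in the main fits. Correlations of same-numbered deviations ran from −0.087 to 0.066 (stage, fresh), −0.103 to 0.025 (stage, vitrified), −0.381 to 0.191 (GV) and −0.328 to 0.282 (MII). They were above 0.1 in 2 of 4 GV pairs and 6 of 12 MII pairs, and in no stage pair. Of the 12 MII pairs, 3 were best with their own number. Pairing by library number was not tested. With the numbers as a replicate block 7, 8, 0, 0 and 0 genes were called (stage fresh, stage vitrified, MII, GV, interaction), without Tubb6 in fresh follicles (−0.88) and Tubb2a in vitrified follicles (0.17). Reversed differences, all uncalled and of untested cause, were in the MII comparison Tuba1a (DESeq2 1.00, limma-voom 0.78, replicate block 1.301, library numbers under 20 1.28, without 4 oocytes with cumulus signal 0.58, without 2 oocytes 0.96, leaving out 1 oocyte −2.21 to 1.00), Tubb5 (DESeq2 0.043, leaving out 1 oocyte −1.29 to 0.032), Tubg1 (total counts −0.00116, library numbers of 20 and over −0.033) and Tubb4b (library numbers under 20 0.077), and in GV oocytes Tuba1c (−1.66 to 0.31 on leaving out 1 oocyte). The 4 oocytes left out for cumulus signal were MII fresh replicates 1 and 11 and MII vitrified replicates 1 and 12. Their granulosa and cumulus markers summed to 153, 2972, 151 and 558 CPM in that order. MII vitrified replicate 7, at 216 CPM, was kept in that setting. DESeq2 called 52 MII genes where edgeR called 0, and 8 interactions where edgeR called 0. Low counts limit Tuba1a in GV oocytes.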
